A study of Mus musculus with 6 samples.

Results

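The proteasome is the barrel-shaped protease that degrades ubiquitin-tagged proteins, and its genes were read here in visceral fat of mice with and without Hmox1 (heme oxygenase-1) in the PdgfraCre lineage. Probesets were taken where the platform annotation gave 1 gene symbol that began with Psma to Psmg and a digit. Where a gene had several probesets, the brightest over the 6 arrays was used. This rule found 50 of 19938 genes, and 46 of the 50 passed the filter on low values (3 or more arrays with a log2 intensity over 7), which 11024 genes passed in all. Of these 46 genes, 17 coded for core subunits, 17 for the base and lid of the cap, 3 for chaperones of the base, 3 for chaperones of the core, 4 for activators and 1 for the regulator PI31. The remaining gene, Psme3ip1, codes for a protein that binds an activator and is no subunit.

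The arrays hold viWAT RNA, from the perigonadal visceral fat pad, with 200 ng labelled per array, each array a pool of 2 mice and 3 arrays per genotype. Hmox1f/f PdgfraCre mice were set against Hmox1f/f mice. Both groups carried Hmox1 alleles with loxP sites around exon 2 and were obese, having eaten a high-fat diet (HFD) from 6 weeks of age for 8 weeks. The study's methods give its mice as males on a C57BL/6J background. Cre was driven by the Pdgfra promoter, which is active in adipose precursors (APs) and in other mesenchymal cells. Since the controls lacked Cre, an effect of Cre itself and one of the missing Hmox1 cannot be told apart. In the labels the material is viWAT in one place and APs purified with beads in another. The bead protocol in the methods removes CD45+ and CD31+ cells and then selects SCA-1+ cells. The arrays are named below with the numbers in their labels, Cre 1 to Cre 3 for Hmox1f/f PdgfraCre and f/f 4 to f/f 6 for Hmox1f/f. These numbers are not shared between genotypes, and nothing in the labels gives a batch or says more of the pools, so p-values measure the spread between these pools.

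Array medians lay between 106 and 115 intensity units. Hmox1 itself lay between 10.74 and 11.36 on the log2 scale in the Cre pools and between 11.63 and 12.32 in the controls, a difference of -0.83 (limma, adjusted p = 0.1996). The AP marker Pdgfra, whose promoter drives Cre, stood at 10.24, 10.05 and 10.23 in the Cre pools and at 10.31, 10.36 and 10.34 in the controls. These values did not overlap, with a difference of -0.17 (SE 0.08, adjusted p in limma 0.3235). Markers of cells that the beads should remove or leave behind were also above the filter on every array, with Adgre1 (macrophages) at 11.08 to 11.92 and Adipoq (adipocytes) at 12.74 to 13.10. Transcripts of spermatids averaged 11.11 over 7 genes on f/f 6 and 6.51 to 8.65 on the others. The epididymal transcripts Adam7 and Lcn5 reached 11.68 and 12.21 on Cre 1. Other epididymal transcripts were highest on f/f 6, among them Gpx5 at 10.33 and Lcn9 at 9.20. Adam7 also stood at 8.93 on Cre 3 and at 7.85 on f/f 6. Results were therefore also computed without Cre 1 and f/f 6, and without each array in turn. In bulk RNA, fewer cells of a type and less RNA per cell cannot be told apart.

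The catalytic core of the proteasome is a stack of rings of alpha and beta subunits. Alpha subunits gate the entry pore. Among the beta subunits, those encoded by Psmb5, Psmb6 and Psmb7 cut the peptide chain. A second set, Psmb8, Psmb9 and Psmb10, is induced by interferon-gamma and made in cells of the haematopoietic lineage, and takes the places of Psmb5, Psmb6 and Psmb7 in newly built particles. The resulting immunoproteasome yields peptides suited to MHC class I molecules. Caps made of a base with ATPases and a lid bind and unfold ubiquitin-tagged substrates, while activators such as PA28 (Psme1 and Psme2) open the pore without ATP. The transcription factors Nfe2l1 and Nfe2l2 act on proteasome genes through antioxidant response elements.

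The 250 bases upstream of the annotated start, from RefSeq on GRCm38.p6, are shown for the 3 immune subunits and for Psmb5, the gene with the lowest difference below, since each set is known for a different inducing element. Sequences run 5′ to 3′ on the strand of the gene, and capitals mark matches to 4 searched motifs, on both strands: the antioxidant response core TGACNNNGC, the interferon stimulated response element (GAAA, any 2 bases, GAAA), the gamma interferon activated site TTCNNNGAA and the CCAAT box.
Psmb5, chr14:54617996-54618245, - strand: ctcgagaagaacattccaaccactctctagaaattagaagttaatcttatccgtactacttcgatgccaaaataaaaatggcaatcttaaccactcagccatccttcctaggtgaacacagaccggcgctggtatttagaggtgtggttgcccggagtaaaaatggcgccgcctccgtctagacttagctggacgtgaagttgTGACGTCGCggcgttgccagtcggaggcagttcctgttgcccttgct
Psmb8, chr17:34197945-34198194, + strand: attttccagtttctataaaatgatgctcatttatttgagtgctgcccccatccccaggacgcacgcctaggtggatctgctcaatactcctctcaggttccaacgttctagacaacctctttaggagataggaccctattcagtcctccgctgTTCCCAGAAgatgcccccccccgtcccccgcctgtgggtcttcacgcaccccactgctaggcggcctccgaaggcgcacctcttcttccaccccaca
Psmb9, chr17:34187331-34187580, - strand: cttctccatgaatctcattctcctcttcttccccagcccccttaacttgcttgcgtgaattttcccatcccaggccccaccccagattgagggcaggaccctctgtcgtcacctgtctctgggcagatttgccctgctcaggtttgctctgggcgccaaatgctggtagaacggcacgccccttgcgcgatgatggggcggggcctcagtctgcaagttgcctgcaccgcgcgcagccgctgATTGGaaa
Psmb10, chr8:105938393-105938642, - strand: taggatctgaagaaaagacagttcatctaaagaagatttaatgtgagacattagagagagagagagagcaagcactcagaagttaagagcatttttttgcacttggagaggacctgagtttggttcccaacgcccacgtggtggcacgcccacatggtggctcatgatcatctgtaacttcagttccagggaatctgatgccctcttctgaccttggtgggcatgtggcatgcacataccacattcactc
Psmb5 held TGACGTCGC 47 bases before its start, and Psmb8 held TTCCCAGAA 97 bases before its start. The motif TTCNNNGAA reads the same on both strands, so this match counts on both. In the window of Psmb9 the match was a reversed CCAAT box, and in that of Psmb10 none of the 4 motifs matched. Psmb9 lies on chromosome 17 beside Tap1, which is transcribed the other way, so the window of Psmb9 runs into the first bases of Tap1. Of the 50 genes, 42 had a window. The antioxidant response core was found in 5 of the 42 (11.9%), against 11.5% of all 27025 genes with a window and 1238 of the 8829 tested genes with one. The interferon stimulated response element was found in 3 of the 42 (7.14%), against 3.46% of all genes and 2.94% of tested genes. These 3 were Psmb3, Psmd4 and Psmd9, none of them an immune subunit. The other shares were 4.76% against 8.13% (6.99% of tested genes) for the gamma interferon activated site and 38.1% against 37.5% (39.5%) for the CCAAT box. These are matches of letters, and no binding was measured.

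Across the proteasome genes the signal in the Cre pools was lower by small amounts. The sign of the difference was lower for 41 of 46 genes (89.1%), against 57.4% of all genes tested, and the median difference was -0.13 on the log2 scale against -0.03 over all genes, though after a further quantile normalization of the arrays Psma4, Psmd10, Psmd14 and Psme2 turned higher. The 3 values of the Cre pools lay wholly below the 3 control values for 26 of the 46 genes (56.5%), against 21.2% of all genes, and wholly above for 0, against 5.82%. In limma's moderated test, 0 of the 46 genes and 0 of 11024 genes passed an adjusted p of 0.05. At an unadjusted p under 0.05, 9 of 46 genes (19.6%) were lower and 0 were higher, where 13.8% of all genes were lower and 3.82% higher (background for either direction, 17.6%). Those 9 were Psma5, Psma7, Psmb1, Psmb3, Psmb4, Psmb5, Psmb8, Psmc4 and Psmg2. The number at unadjusted p under 0.05 depended on single arrays. It was 3 (6.52%) without Cre 1, 6 (13.0%) without Cre 3, 4 (8.7%) without f/f 5, 4 (8.7%) without f/f 6 and 2 (4.35%) without Cre 1 and f/f 6 together, where 8.84%, 12.7%, 11.1%, 8.18% and 4.12% of all genes were lower. It was 4 (8.7%) after a further quantile normalization, against 9.07% of all genes, and 1 of 9 (11.1%) with the stricter filter of the methods, against 13.6%. In these 7 settings the share of proteasome genes was thus near or below that of all genes. In all other settings this share was above that of all genes. The count was 15 (32.6%) with array weights, against 16.6%, and 12 (26.1%) without Cre 2, against 14.5%. It was 7 (15.2%) without f/f 4, against 9.03%, and 10 of 50 (20%) without the filter, against 7.5%. Of all genes at this threshold 78.3% were lower, and 57.3% after the further quantile normalization. The count of genes wholly below the controls was 16 after that normalization, against 14.1% of all genes, and 26 without Cre 1 and f/f 6, where fewer arrays gave 29.4% of all genes.

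**Figure D1:**
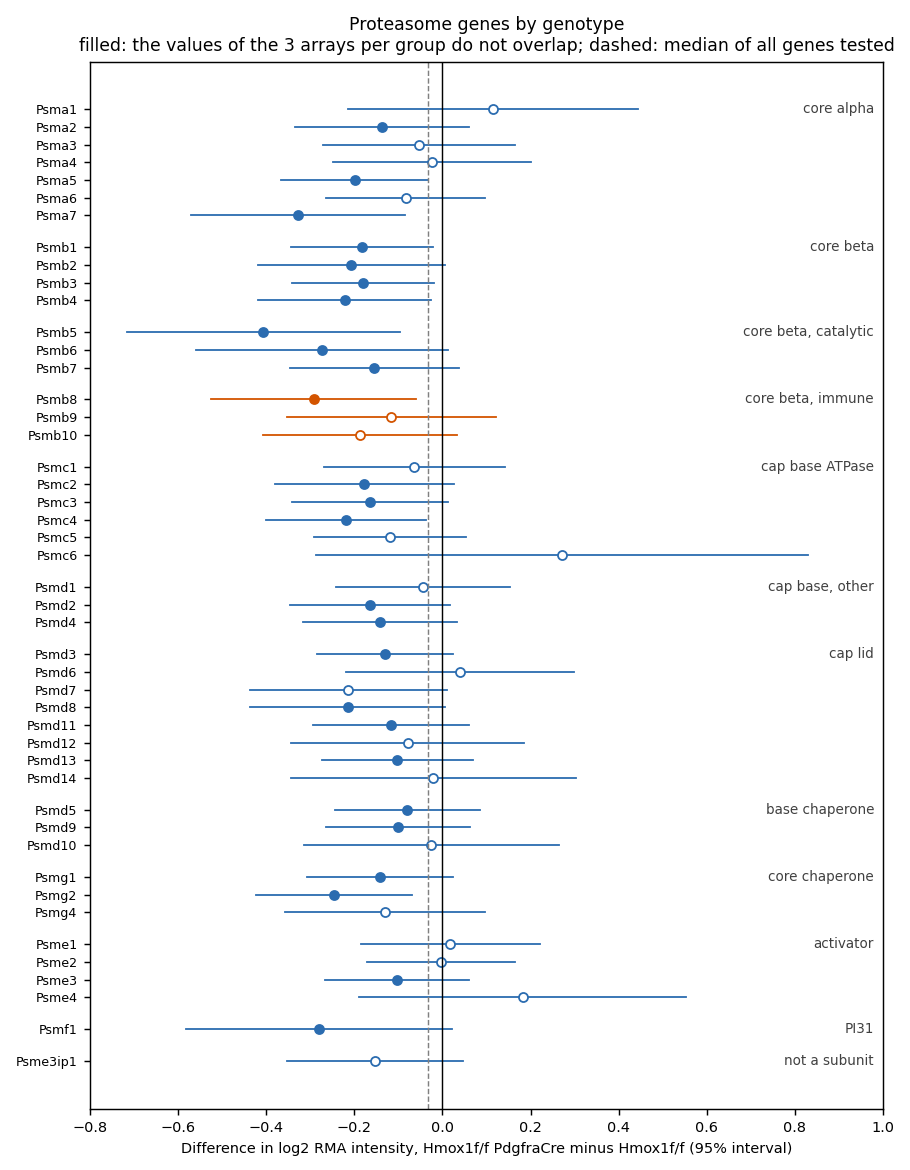
Difference in log2 RMA intensity between Hmox1f/f PdgfraCre and Hmox1f/f (x axis) for the 46 proteasome genes past the filter, grouped by role (y axis), with 95% intervals of limma's fit on 3 arrays per genotype. Filled points are genes whose values in both genotypes did not overlap, orange marks the immune subunits and the dashed line is the median of all 11024 genes (-0.03); 41 of 46 points lie left of 0, and the activators lie around it.

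The constitutive core holds 7 beta subunits. For each of the 7, the values of the Cre pools lay below all control values, where 21.2% of all genes did so, and the median difference was -0.21, against -0.03 over all genes. Psmb5, which cuts after hydrophobic residues, stood at 8.75, 8.72 and 8.36 in the Cre pools and at 9.04, 8.86 and 9.16 in the controls. The lowest value was that of Cre 3 and the highest that of f/f 6. The means were 8.61 ± 0.22 and 9.02 ± 0.15 (SD, n = 3 each), which is a difference of -0.41 (SE 0.13, 95% interval -0.72 to -0.10) or 1.33-fold, with an adjusted p in limma of 0.216. This was the lowest difference among the 46 genes. Psmb6, the caspase-like subunit, stood at 11.09, 11.20 and 10.78 against 11.24, 11.25 and 11.41. Here too Cre 3 was lowest and f/f 6 highest, while the closest pools of both genotypes were 11.20 and 11.24. The difference was -0.27 (SE 0.12, adjusted p in limma 0.299). Psmb7, the trypsin-like subunit, stood at 10.18, 10.39 and 10.32 against 10.47, 10.48 and 10.40, with a difference of -0.16 (SE 0.08, adjusted p in limma 0.357). The groups were nearly in contact, at 10.39 and 10.40.

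The beta subunits without an active site are structural parts of the ring, and none of the 4 overlapped. Psmb4 stood at 9.13, 9.25 and 9.11 against 9.49, 9.29 and 9.37, a difference of -0.22 (SE 0.08, adjusted p in limma 0.247). Psmb1 stood at 9.98, 10.06 and 9.98 against 10.21, 10.16 and 10.20, a difference of -0.18 (SE 0.07, adjusted p in limma 0.245). In both genes the spread within a genotype was at most 0.10 (SD) and the difference was larger than that spread, though it did not pass the adjusted threshold. The differences of Psmb2 and Psmb3 were -0.21 and -0.18. A second, dimmer probeset of Psmb3 differed by -0.28. In the limma fit after a further quantile normalization, the count of constitutive beta subunits that did not overlap was 3 in place of 7 (14.1% of all genes), and the median difference was -0.17.

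Of the 3 immune subunits 1 (33.3%) did not overlap, against 21.2% of all genes, and their median difference was -0.19, against -0.03. Psmb8 stood at 9.23, 9.40 and 9.10 in the Cre pools and at 9.49, 9.63 and 9.48 in the controls, with no overlap. The means were 9.24 ± 0.15 and 9.53 ± 0.08 (SD, n = 3 each), a difference of -0.29 (SE 0.10, 95% interval -0.53 to -0.06), with an adjusted p in limma of 0.222. Without Cre 1 and f/f 6 the difference was -0.31. Psmb9 stood at 8.63, 8.89 and 8.58 against 8.80, 8.90 and 8.75, so that Cre 2 lay among the controls. The difference was -0.12 (SE 0.10, 95% interval -0.35 to 0.12, adjusted p in limma 0.551). Psmb10 stood at 9.15, 9.37 and 9.21 against 9.31, 9.52 and 9.47, and again Cre 2 lay above the lowest control. Its difference was -0.19 (SE 0.09, adjusted p in limma 0.335). In all 3 genes f/f 5 was the highest array.

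**Figure D2:**
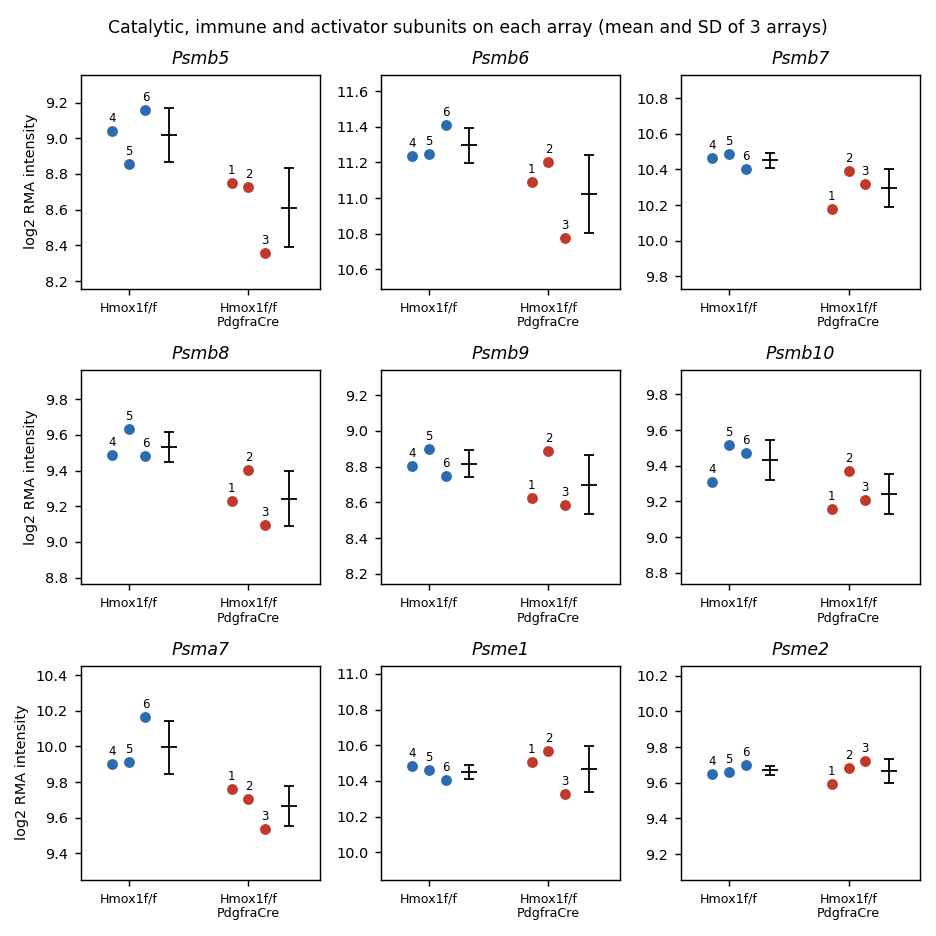
Log2 RMA intensity (y axis, the same span of 1.2 in each panel, not starting at 0) of the catalytic subunits Psmb5 to Psmb7, the immune subunits Psmb8 to Psmb10, Psma7 and the PA28 subunits Psme1 and Psme2 on each array, with array numbers beside the points. Bars are the mean and SD of 3 arrays; the groups do not overlap for Psmb5, Psmb6, Psmb7, Psmb8 and Psma7, and they overlap for Psmb9, Psmb10, Psme1 and Psme2.

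Whether an immune subunit and the subunit it replaces differed unequally was asked within arrays, from the log2 difference of each pair. Levels of the probesets of a pair were not compared, since probes differ in brightness, and only the change of the pair difference with genotype was tested. Psmb8 minus Psmb5 was 0.48, 0.68 and 0.74 in the Cre pools and 0.45, 0.78 and 0.32 in the controls, a change of 0.11 (SE 0.16, exact two-sided permutation p = 0.6). For Psmb9 minus Psmb6 the values were -2.46, -2.31 and -2.19 against -2.43, -2.35 and -2.66, a change of 0.16 (SE 0.12, exact permutation p = 0.3). For Psmb10 minus Psmb7 they were -1.02, -1.02 and -1.11 against -1.16, -0.97 and -0.93, a change of -0.03 (SE 0.08, exact permutation p = 0.6). All 3 pairs overlapped between genotypes. With 3 arrays per genotype the smallest p this test can give is 0.1, so a shift between the sets could not have passed 0.05. The sign of the last pair turned to 0.01 without f/f 6.

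The alpha ring was mixed. Psma7 stood at 9.76, 9.70 and 9.54 in the Cre pools and at 9.90, 9.91 and 10.17 in the controls, a difference of -0.33 (SE 0.10, 95% interval -0.57 to -0.09, adjusted p in limma 0.212). Its ends were those of Psmb5, with Cre 3 lowest and f/f 6 highest. Psma5 stood at 8.69, 8.70 and 8.76 against 8.89, 8.98 and 8.88, a difference of -0.20 (SE 0.07, adjusted p in limma 0.234), and its dimmer probeset differed by -0.31. Psma2 did not overlap either, with a difference of -0.14. The other 4 alpha subunits overlapped, with differences of -0.08 for Psma6, -0.05 for Psma3, -0.02 for Psma4 and 0.11 for Psma1. The median of the 7 was -0.08, and 3 of the 7 (42.9%) did not overlap, against -0.03 and 21.2% over all genes.

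In the cap, 15 of 17 base and lid genes (88.2%) were lower in sign, 9 (52.9%) did not overlap and the median difference was -0.12. Over all genes these values were 57.4%, 21.2% and -0.03. Of the 6 ATPases, which unfold the substrate, Psmc4 stood at 9.69, 9.84 and 9.67 against 9.93, 9.95 and 9.98, a difference of -0.22 (SE 0.08, adjusted p in limma 0.234). Psmc3 stood at 9.19, 9.29 and 9.12 against 9.36, 9.35 and 9.38, a difference of -0.17 (SE 0.08, adjusted p in limma 0.304). The 3 controls lay close together in both genes, with an SD of 0.03 and 0.02. Psmc2 did not overlap at -0.18, and Psmc5 and Psmc1 overlapped at -0.12 and -0.06. Psmc6 had the widest spread of the 46 genes, at 9.48, 9.81 and 10.32 against 9.54, 9.95 and 9.31, which gave 0.27 with an SE of 0.24. Its highest array was Cre 3 and its lowest f/f 6, the reverse of Psmb5.

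The non-ATPase subunits of the base include the scaffold Psmd2 and the ubiquitin receptor Psmd4. Psmd2 stood at 10.71, 10.85 and 10.83 against 10.99, 10.89 and 10.997, a difference of -0.16 (SE 0.08, adjusted p in limma 0.312). Psmd4 stood at 9.06, 9.14 and 9.15 against 9.19, 9.25 and 9.34, a difference of -0.14 (SE 0.07, adjusted p in limma 0.358). Neither overlapped, whereas Psmd1, the other scaffold, overlapped at -0.04. The lid surrounds the deubiquitinase Psmd14, which removes the ubiquitin chain. Psmd8 stood at 10.42, 10.37 and 10.24 against 10.48, 10.48 and 10.71, a difference of -0.22 (SE 0.09, adjusted p in limma 0.295). Psmd7, the partner of Psmd14, stood at 10.16, 10.29 and 10.16 against 10.27, 10.43 and 10.55, and overlapped by 1 pool at a difference of -0.21 (SE 0.10, adjusted p in limma 0.300). Psmd14 itself differed by -0.02 (SE 0.14, 95% interval -0.34 to 0.30). The other lid genes ran from -0.13 for Psmd3, through Psmd11, Psmd13 and Psmd12, to 0.04 for Psmd6. Psmd3 did not overlap, with an SD of 0.0047 in the Cre pools.

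The 6 tested chaperones that build the particle were lower in sign, against 57.4% of all genes. Psmd10 turned to 0.015 after a further quantile normalization. Of the chaperones of the core and of the base, 2 of 3 each (66.7%) did not overlap, against 21.2% of all genes. Psmg2, which pairs with Psmg1 to start the alpha ring, stood at 8.24, 8.35 and 8.41 against 8.55, 8.61 and 8.58. The groups did not overlap, and the difference of -0.25 (SE 0.08, 95% interval -0.42 to -0.07, adjusted p in limma 0.209) had the smallest p of the 46 genes. Psmg1 stood at 8.55, 8.46 and 8.57 against 8.69, 8.65 and 8.67, a difference of -0.14 (SE 0.07, adjusted p in limma 0.333). Psmg4 lay near the filter, between 7 and 7.36, with a difference of -0.13. Among chaperones of the base, Psmd9 stood at 8.35, 8.42 and 8.31 against 8.47, 8.46 and 8.44, and Psmd5 at 9.64, 9.52 and 9.56 against 9.64, 9.65 and 9.66. Their differences were -0.10 and -0.08 (adjusted p in limma 0.456 and 0.551). The values of neither overlapped, though those of Psmd5 met at 9.64. Psmd10 overlapped, at -0.03.

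Of the 4 activators 2 were lower and 2 higher in sign, with a median difference of 0.01, where 57.4% of all genes were lower and the median was -0.03. Psme1 and Psme2 code for PA28 alpha and beta, which interferon-gamma induces together with the immune subunits, and lie close together on chromosome 14. Psme1 stood at 10.51, 10.57 and 10.32 against 10.48, 10.46 and 10.40, a difference of 0.02 (SE 0.09, 95% interval -0.19 to 0.22, adjusted p in limma 0.923). Psme2 stood at 9.59, 9.68 and 9.72 against 9.65, 9.66 and 9.70, a difference of -0.0032 (SE 0.07, 95% interval -0.17 to 0.16, adjusted p in limma 0.984). Both overlapped, and the sign of each turned under several other settings. Both intervals reach past -0.16, so a difference of the size seen in Psmb7 lies within them. Psme3, the nuclear PA28 gamma, stood at 10.50, 10.53 and 10.49 against 10.58, 10.57 and 10.67 and did not overlap, at -0.10 (SE 0.07, adjusted p in limma 0.452). Psme4 (PA200) stood at 10.01, 10.12 and 10.60 against 10.07, 10.17 and 9.94, a difference of 0.18 (SE 0.16). Cre 3 stood above the other 5 arrays of Psme4. Psmf1, which codes for PI31, stood at 9.86, 9.83 and 9.68 against 9.91, 9.95 and 10.34, a difference of -0.28 (SE 0.13, adjusted p in limma 0.305), with f/f 6 far above the other controls. Without Cre 1 and f/f 6 the difference of Psmf1 was -0.18. Psme3ip1 stood at 8.42, 8.65 and 8.53 against 8.63, 8.69 and 8.74 and overlapped, with a difference of -0.15 (SE 0.09, adjusted p in limma 0.378).

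Among the 4 genes below the filter are those restricted to single organs. Psmb11, the beta subunit of the thymus, lay between 5.83 and 6.11 on all arrays. Psma8, the alpha subunit of male germ cells, lay between 5.43 and 5.98 on 5 arrays and at 6.88 on f/f 6, the array with the highest spermatid transcripts. The chaperone Psmg3 lay between 5.93 and 6.71. Psmc3ip, a recombination factor named for binding Psmc3 and no subunit, lay between 6.11 and 6.98, highest again on f/f 6. A probeset shared by Psme2 and its copy Psme2b was left out because it names several genes. It stood at 8.77, 9.03 and 9.09 against 8.96, 9.19 and 8.92. The 5 genes with more than 1 probeset of their own, Psma3, Psma5, Psmb3, Psmc1 and Psmd2, had the same sign in each.

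The arrays did not contribute evenly. Cre 1 was the lowest array for 21 of the 46 genes and the highest for 0, where over all genes it was lowest for 24.3% and highest for 10.5%. Cre 3 was the lowest for 15 and the highest for 10 genes (25.9% and 31.3% of all genes), and Cre 2 was the lowest for 4 (14.2%). Among the controls, f/f 4 and f/f 5 were the lowest for 0 genes, as they were for 3.19% and 5.39% of all genes. Array f/f 6 was the highest for 20 and the lowest for 6 (24.5% and 26.9% of all genes). Cre 3 thus split the genes into those at their lowest, among them Psmb5, Psmb6, Psma7, Psmd8 and Psme1, and those at their highest, among them Psmc6, Psma1, Psme4, Psmd6, Psmd14 and Psmd12. The median deviation from each gene's mean over the 46 genes was -0.13, -0.03 and -0.06 in the Cre pools and 0.05, 0.08 and 0.08 in the controls, and these did not overlap.

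**Figure D3:**
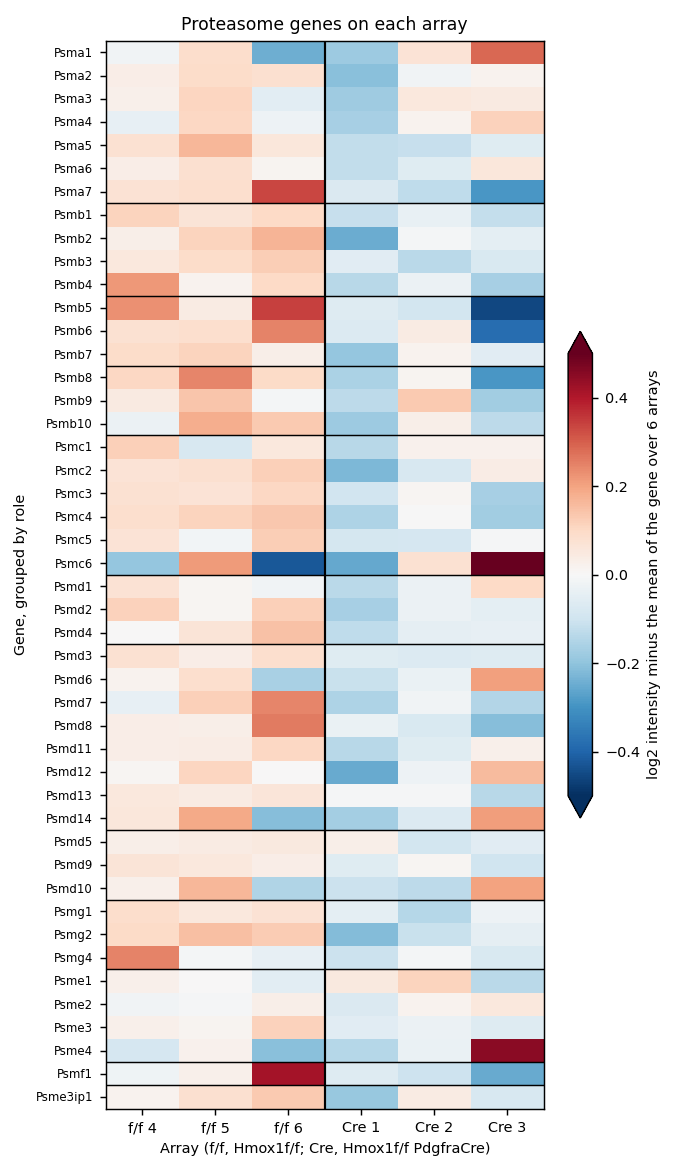
Log2 RMA intensity minus the mean of the gene over 6 arrays (colour, blue lower and red higher, capped at 0.5) for the 46 proteasome genes past the filter (y axis, grouped by role) on each array (x axis, f/f for Hmox1f/f and Cre for Hmox1f/f PdgfraCre). Control columns are mostly red and Cre columns mostly blue; Psmc6, Psme4 and Psma1 run the other way on Cre 3 and f/f 6.

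Other genes that work with the proteasome were read from lists. Of 32 listed partners, among them ubiquitin receptors, assembly factors and regulators, 19 were tested, and 12 were lower and 7 higher in sign, with a median of -0.04 (-0.03 over all genes). At an unadjusted p under 0.05, 1 of the 19 (5.26%) was lower, against 13.8% of all genes. That gene was Sem1, a small subunit of the lid, at 10.01, 10.18 and 10.12 against 10.28, 10.27 and 10.34. Its difference was -0.19 (SE 0.08, adjusted p in limma 0.262). Pomp, the maturation factor of the core, differed by -0.12 (adjusted p in limma 0.471), and Rad23b, a shuttle for ubiquitin-tagged proteins, by -0.13 (adjusted p 0.374). The transcription factor Nfe2l1 differed by 0.05 (adjusted p 0.735) and Nfe2l2, which also acts on Hmox1, by -0.16 (adjusted p 0.319).

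In MHC class I presentation, 11 of 15 listed genes were tested, 6 lower and 5 higher in sign, with a median of -0.07 (-0.03 over all genes). The 1 gene of 11 (9.09%) lower at an unadjusted p under 0.05, against 13.8% of all genes, was Tapbpl, an editor of bound peptides, at -0.21 (SE 0.08, adjusted p in limma 0.259). Tap1 and Tap2, which carry peptides into the endoplasmic reticulum and flank Psmb8 on chromosome 17, overlapped between genotypes. Their differences were -0.07 (SE 0.10, adjusted p 0.740) and 0.06 (SE 0.14, adjusted p 0.827). The loading factors Pdia3, Calr and Tapbp differed by -0.14, -0.12 and -0.10, with adjusted p of 0.393, 0.437 and 0.475.

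Of 24 listed genes of the interferon response, 17 were tested, 6 lower and 11 higher in sign, with a median of 0.06 (-0.03 over all genes). Oasl2, an antiviral protein, was the 1 gene of 17 (5.88%) lower at an unadjusted p under 0.05, against 13.8% of all genes, at 8.79, 9.10 and 8.77 against 9.14, 9.23 and 9.23. Its difference was -0.31 (SE 0.10, adjusted p in limma 0.221). Oas1a and Irgm1 differed by -0.28 and -0.23, and Gbp7, a guanylate-binding protein, by 0.34 (adjusted p 0.334, 0.372 and 0.358). Irf1, a transcription factor that acts on the immune subunits, differed by 0.02 (SE 0.10, adjusted p 0.934). Array f/f 5 had the highest mean of this list (8.55, against 8.09 to 8.36 on the other arrays), and it was also the highest array of Psmb8, Psmb9 and Psmb10. The other arrays did not keep this order. Array f/f 6 had the lowest mean of the list (8.09), yet stood above all Cre pools in Psmb8 (9.48) and Psmb10 (9.47). Cre 3, with a mean of 8.35, was the lowest array of Psmb8 and Psmb9. A link between the list and the immune subunits was not tested.

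Lists of markers of other cell types were read in the same fit, and 0 of their genes passed an adjusted p of 0.05 in limma. Of 21 tested macrophage markers (of 22 listed), 21 were lower in sign (the smallest at -0.02), 15 (71.4%) did not overlap and 15 were lower at an unadjusted p under 0.05. Over all genes 57.4% were lower in sign, 21.2% did not overlap and 13.8% were lower at that p. The median difference of the list was -0.38, against -0.03. Their mean was 10.57, 10.83 and 10.40 in the Cre pools and 11.08, 11.03 and 11.03 in the controls. Adgre1 differed by -0.57 (SE 0.13, adjusted p in limma 0.1996). Among the Cre pools, Cre 2 was highest both in the mean of the list and in all 3 immune subunits. This was not particular to the immune subunits. Cre 2 was also the highest Cre pool in the median deviation of the 7 constitutive beta subunits (-0.03, against -0.12 on Cre 1 and Cre 3). The same held over the 46 genes (-0.03, against -0.13 and -0.06). Among the controls, f/f 5 was highest in the immune subunits, and the list means lay close together, at 11.03 to 11.08. Macrophages express immune subunits, and the part of these cells in the values of Psmb8 to Psmb10 was not tested. Of 16 lymphocyte markers 4 were tested, with means of 8.03 to 8.28 against 8.11 to 8.35, 2 lower and 2 higher in sign. These 4 were Il7r, at 10.36, 10.87 and 10.32 against 10.98, 10.92 and 10.79 (difference -0.39, SE 0.15, adjusted p in limma 0.260), Cd3e (7.65 to 8.24), Cd2 (7 to 7.26) and Cd79b (6.88 to 7.30). The T cell gene Cd3d and the B cell gene Ms4a1 were among those below the filter, between 4.75 and 5.67. The 10 endothelial markers were all higher in sign (median 0.35, with 7 at an unadjusted p under 0.05 where 3.82% of all genes were higher), as were the 8 tested adipocyte markers (median 0.16). The 8 tested AP markers were evenly split in sign (median -0.03). Among them 2 (25.0%) were lower without overlap, against 21.2% of all genes, and 0 were higher without overlap. Those 2 were Pdgfra at -0.17 and Pi16 at -0.30. The part of these shifts in the proteasome genes was not tested.

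**Figure D4:**
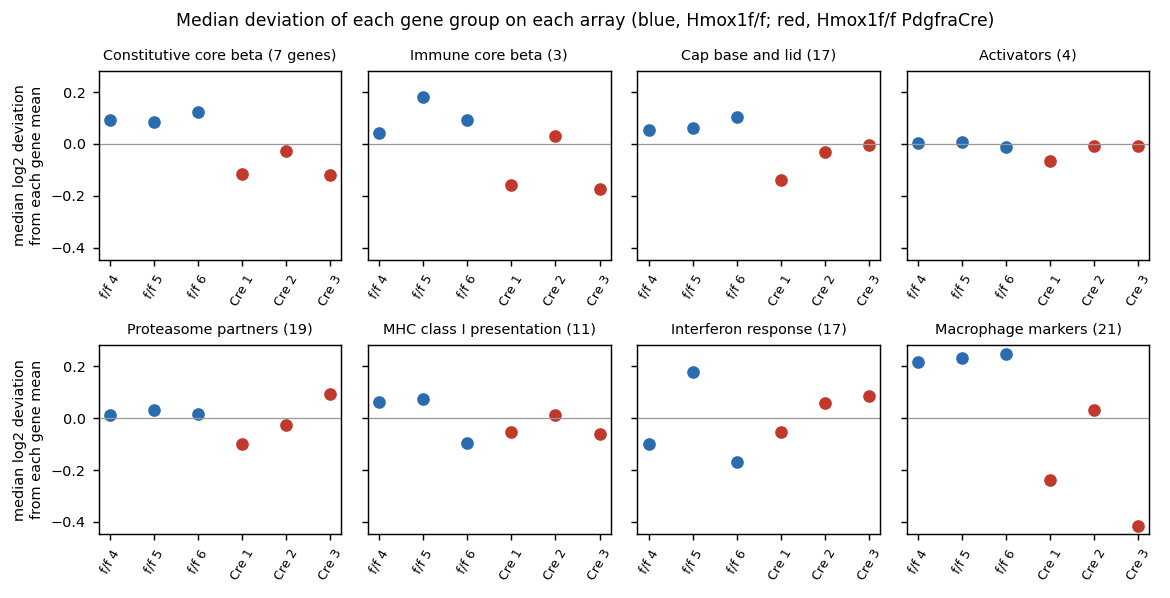
Median log2 deviation from each gene's mean over 6 arrays (y axis) on each array (x axis; f/f for Hmox1f/f in blue, Cre for Hmox1f/f PdgfraCre in red) for 8 gene groups, with the number of tested genes in parentheses. The constitutive core beta, immune core beta, cap and macrophage groups are lower in all 3 Cre pools than in any control, and the activators stay near 0.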

How the data were processed

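Total RNA of 6 pools was measured on Affymetrix mouse gene arrays. The authors deposited 1 intensity per probeset and array, linear and without decimals, from 8 to 20701. According to the processing notes of the submitters, Affymetrix Expression Console 1.1 made them by RMA, which corrects background, quantile-normalizes the arrays and summarises the probes of a probeset. Small differences of dim probesets are compressed by this, and changes common to most genes are removed. The genome build is not given in the sources used here. The number of arrays limits the precision.

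Log2 of the deposited values was taken. The platform annotation names 1 gene for 21789 of 35556 probesets and several for 1621, with 12146 unnamed here; 21698 of the first matched RefSeq by gene number. The brightest probeset stood for a gene (999 genes had several), which left 19938 genes. Genes above 7 in at least 3 arrays (11024) were tested by genotype, the only term, with lmFit and eBayes of limma 3.58.1 (R 4.3.3, two-sided), and the Benjamini-Hochberg adjustment ran over all of them. This test was checked beforehand on simulated data. The methods state the filter for another screen of the study and add a filter on variability, which was run as an alternative. Pair differences were tested by exact permutation over the arrays. Medians and counts over gene groups carry no test and are to be read against the same values for all genes.

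Full values are given for Psmb5 to Psmb10, Psme1, Psme2 and the 2 genes with the smallest unadjusted p of each other role. Of each pathway list up to 4 genes are named, by the same order, and always Pomp, Nfe2l1, Tap1, Tap2 and Irf1. The proteasome genes and all lists were chosen with earlier results of these data known. The alternatives were filters, normalization, variance moderation, array weights, the mean over probesets and leaving out arrays. Promoter windows came from RefSeq (GRCm38.p6).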

Additional observations from a re-analysis of the deposited data

How the results depend on the processing

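With 3 pools per genotype, 0 genes passed an adjusted p of 0.05 under any of the 16 alternatives, and the smallest adjusted p of a proteasome gene was 0.113. Of the 46 tested genes, 35 kept the sign of their difference under all alternatives run for them and 11 did not. Variances moderated over all genes, a setting chosen after seeing the data, left the count of genes lower at unadjusted p under 0.05 at 9. That count was 1 with the filter of the methods (9 proteasome genes left), 4 after further quantile normalization, 15 with array weights, 2 without Cre 1 and f/f 6 together, and 3 to 12 with 1 array left out. Under these settings 13.6%, 9.07%, 16.6%, 4.12% and, with 1 array left out, 8.18% to 14.5% of all genes were lower at that threshold. Of all genes at unadjusted p under 0.05, 78.3% were lower, or 57.3% after further quantile normalization, when the median of all genes went from -0.03 to 0.00; it was -0.06 with arrays centred on their median. Genes lower without overlap numbered 5 of 9 with the filter of the methods (26.5% of all genes) and 16 after quantile normalization (14.1%). They numbered 26 to 31 with 1 array left out, where 24% to 29.8% of all genes were lower without overlap. Genes higher without overlap numbered 1 without both arrays together and 0 to 1 with 1 array left out. For the constitutive beta subunits the count of genes lower without overlap was 2 with the filter of the methods (26.5% of all genes). That filter left only Psmb5 and Psmb6 of them. The count was 3 after quantile normalization (14.1% of all genes). With the filter of the methods the medians were -0.27 for all genes of the proteasome, -0.34 for constitutive beta, -0.29 for immune, 0.13 for cap and 0.18 for activators, over the few genes left. The constitutive beta median ran from -0.25 to -0.18 with 1 array left out. That of the activators was 0.047 after quantile normalization, -0.020 with centred arrays and -0.023 to 0.015 with 1 array left out.

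The pair difference of Psmb10 and Psmb7 ran from -0.10 to 0.011 with 1 array left out. Differences of single genes that changed sign were, without both arrays together, -0.025 for Psme1, 0.047 for Psme2, -0.073 for Tap2, -0.023 for Irf1, 0.035 for Psma4, 0.0008 for Psmc1 and 0.0083 for Psmd12. After quantile normalization they were 0.043 for Psme2, 0.028 for Psma4, 0.015 for Psmd10 and 0.015 for Psmd14. With centred arrays they were -0.0091 for Psme1 and -0.0088 for Irf1, and with array weights -0.029 for Tap2, -0.067 for Irf1, -0.040 for Psma1 and -0.071 for Psmd6. With 1 array left out, the ranges were -0.033 to 0.089 for Psme1, -0.030 to 0.033 for Psme2, -0.14 to 0.025 for Tap1, -0.092 to 0.16 for Tap2, -0.061 to 0.10 for Irf1, -0.0006 to 0.23 for Psma1, -0.093 to 0.023 for Psma3, -0.088 to 0.053 for Psma4, -0.10 to 0.012 for Psmd1, -0.13 to 0.051 for Psmd10, -0.18 to 0.028 for Psmd12, -0.13 to 0.069 for Psmd14 and -0.052 to 0.10 for Psmd6. Some settings leave fewer genes or arrays, and the cause of these changes was not tested. No paired analysis was possible because the genotypes share no replicate numbers.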
